A study of Mus musculus with 12 samples.

Results

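DNA replication and E2F genes are described here in mouse embryonic fibroblasts without telomerase. The 49 genes act at the step from G1 into S phase or in S phase itself, and each was represented by the probe set annotated with that symbol alone, the brightest on average over the 12 arrays where there were several. All 49 listed genes had such a probe set, out of 28853 probe sets on the array and 19938 genes with a probe set of their own. The cells were primary fibroblasts from male C57BL/6J embryos at mid-gestation, up to embryonic day 14.5, harvested at passage 5. Every group had 3 cultures with 1 Affymetrix Mouse Gene 1.0 ST array each. Embryo age was given only as a range of days, the same for all 12 cultures, so age differences between cultures could not be checked. The mTERT KO cultures lacked telomerase reverse transcriptase, and the mTERT WT cultures were their wild types. The mTR KO cultures lacked the telomerase RNA, and the mTR WT cultures were their wild types. Both knockouts were of generation G1, the first without the enzyme, and wild-type and knockout embryos of a set came from one litter according to the design. No culture was treated, and the labels name the deletions without giving their construction.

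Before S phase, the origin recognition complex with Cdc6 and Cdt1 loads the Mcm2 to Mcm7 helicase onto replication origins, and in S phase Cdc45 and the GINS proteins turn it into an active helicase that is followed by the DNA polymerases. Most of the genes involved are transcribed in late G1 by E2F factors, which retinoblastoma proteins hold inactive until cyclin-dependent kinases phosphorylate these. Embryonic fibroblasts divide in culture until they slow down and senesce, so the RNA of such genes can follow the fraction of cells that are cycling. In a bulk culture, fewer cells in S phase and less RNA per cell cannot be told apart.

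The signals are log2 values on a scale common to the arrays. Of the 49 genes, 46 were above background in all 12 cultures, where background is the level that 95% of the 1035 probe sets for olfactory receptors stay below on the same array (4.93 to 5.09). The licensing gene Orc1 was above it in 3 cultures, E2f2 in 4 and the clamp loader gene Dscc1 in 11. Fibroblast markers were above background in every culture for 11 of 11 genes, among them Fn1 and Postn. Macrophage markers were also present, with 15 of 16 above background in every culture, among them Lyz2 and Fcer1g. Pecam1, Cdh5, Kdr, Tek and Tie1 of the endothelium, Epcam and Krt14 of epithelia and the 3 erythroid markers were at background in every culture. The endothelial marker Emcn was above background in 3 cultures. Of the epithelial markers, Cdh1 and Krt18 were above background in 9 cultures each and Krt5 in 1. Acta1 alone of 6 skeletal muscle markers, Krt8 alone of 6 epithelial markers and all 4 neural and glial markers analysed were above it in every culture. Of the other skeletal muscle markers, Ckm was above background in 8 cultures, Myod1 and Myog in 6 each, and Myf5 and Myh3 in 0. Tert read 4.99, 4.84 and 4.75 in mTERT KO cultures against 5.72, 5.74 and 5.51 in mTERT WT cultures, all 3 knockouts being below all 3 wild types. Terc read 4.50, 4.73 and 4.57 in mTR KO cultures against 4.65, 4.73 and 4.94 in mTR WT cultures, all at background, so it could not check the mTR KO label.

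No replication or E2F gene passed the test in either knockout. In mTERT KO cultures 35 of the 49 genes were higher than in mTERT WT cultures, with a median difference of 0.05 and a range from −0.20 for E2f2 to 0.23 for the cyclin gene Ccne2. In mTR KO cultures 41 of the 49 were higher than in mTR WT cultures, with a median of 0.09 and a range from −0.10 for Rpa2 to 0.44 for Pola1. Over all probe sets the share with a positive difference was 50.6% in the mTERT line and 50.3% in the mTR line, with medians of 0.00 in both. None of the 49 genes had an adjusted p below 0.05 in limma. Over all probe sets, 0.00347% passed in the mTERT comparison and 0.0% in the mTR comparison. The 1 that passed was the probe set of Tert, the deleted gene itself (−0.79 ± 0.08, limma, adjusted p = 0.0352). The smallest adjusted p among the 49 was 1 in the mTERT line and 0.839 in the mTR line. The p-values measure the spread between the cultures of this series only.

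**Figure D1:**
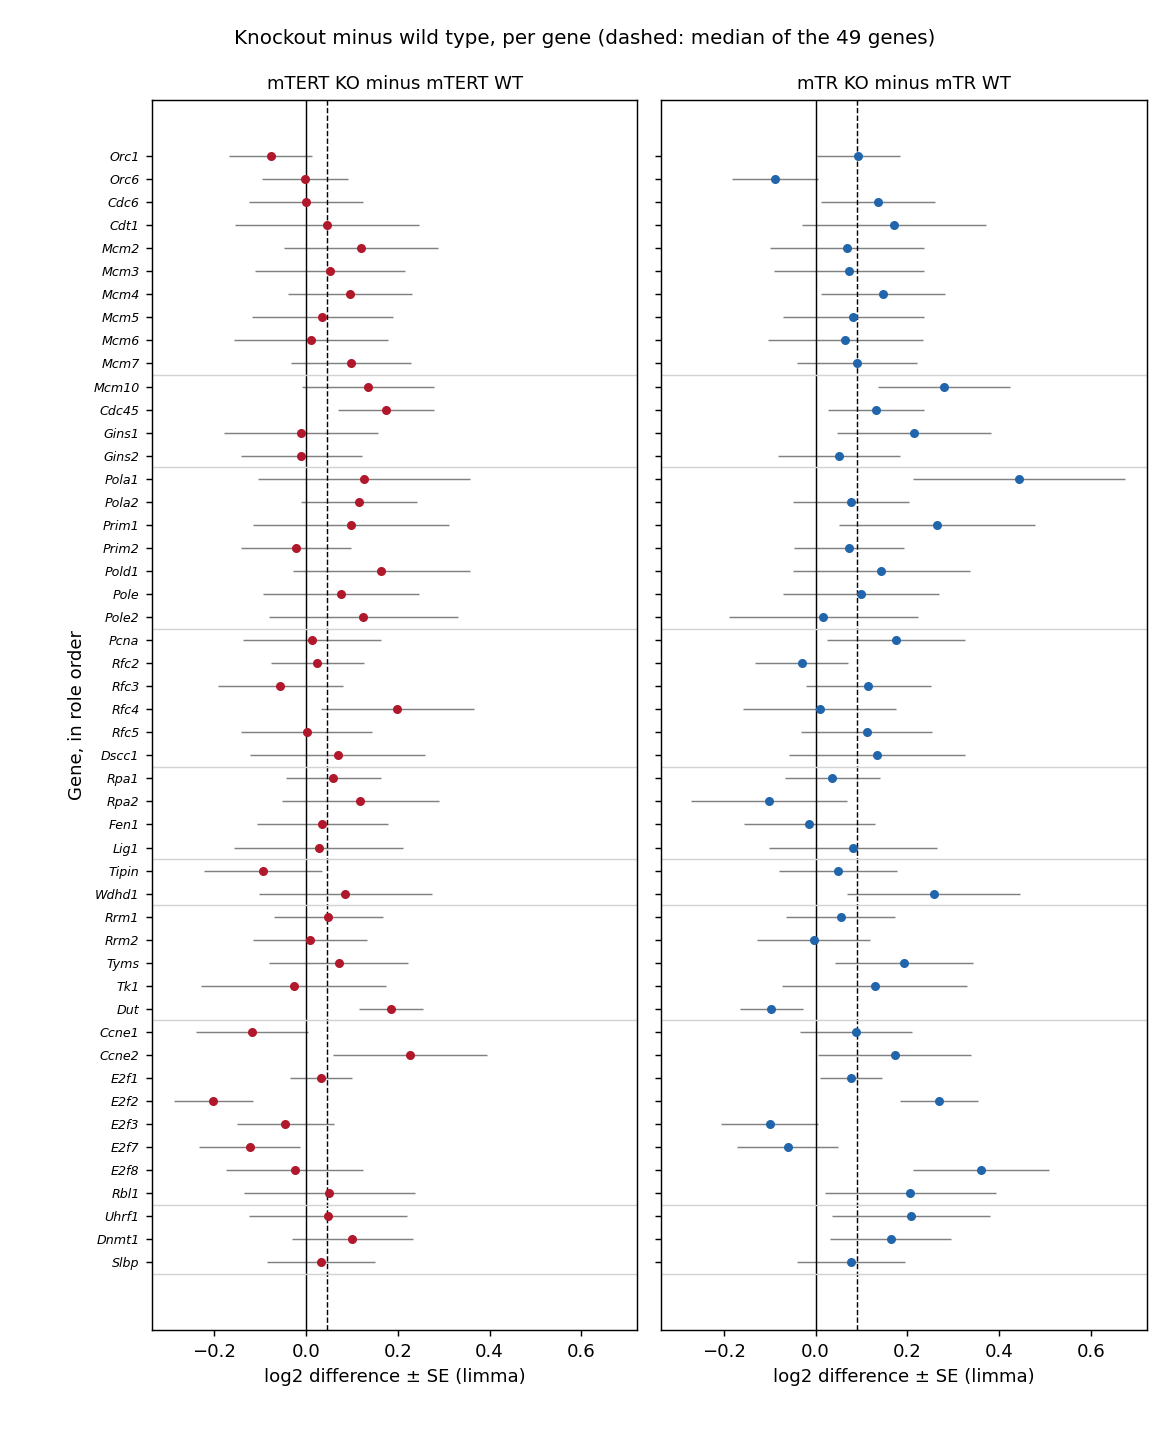
Knockout minus wild type for each of the 49 genes (vertical, in the order of their roles), as the log2 difference ± standard error of the limma fit (horizontal), for the mTERT line on the left and the mTR line on the right; the dashed lines mark the medians of 0.05 and 0.09. Most points lie right of 0 in both panels, but for most genes the standard error is larger than the difference, so the bar crosses 0.

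At an unadjusted p below 0.05, 1 gene was higher (Dut) and 1 lower (E2f2) in the mTERT line, where 0.96% and 0.957% of all probe sets were. In the mTR line 2 genes were higher (E2f2 and E2f8) and 0 lower, where 2.23% and 3.59% of all probe sets were. Knockout and wild type did not overlap for 1 gene upward (Dut) and 1 downward (E2f2) in the mTERT line, against 2.88% and 3.09% of all probe sets. They did not overlap for E2f2 alone, upward, in the mTR line, against 5.33% upward and 6.07% downward over all probe sets. The counts of single genes were thus close to the background shares. The directions of the 49 genes are not independent of each other, because most of them follow one profile over the cultures.

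The count of higher genes was lowest without culture 1 of the knockout in each line. Without mTERT KO 1 the count was 22 of 49 and the median −0.02. Over all 6 omissions in the line the count ran from 22 to 43. The fit without mTERT KO 1 kept mTERT WT 1, its same-numbered partner and the highest mTERT WT culture in the mean of the 49 genes. In the same-numbered pairs 2 and 3 of that line, 29 and 25 of 49 genes were higher in the knockout. Without mTR KO 1 the count was 16 of 49 and the median −0.04. Without mTR KO 3 it was 46 of 49 and the median 0.25, and then 17 genes did not overlap between knockout and wild type and 12 were higher at an unadjusted p below 0.05, where 3435 and 977 of 28853 probe sets were. The smallest adjusted p among the 49 was then 0.286.

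**Figure D2:**
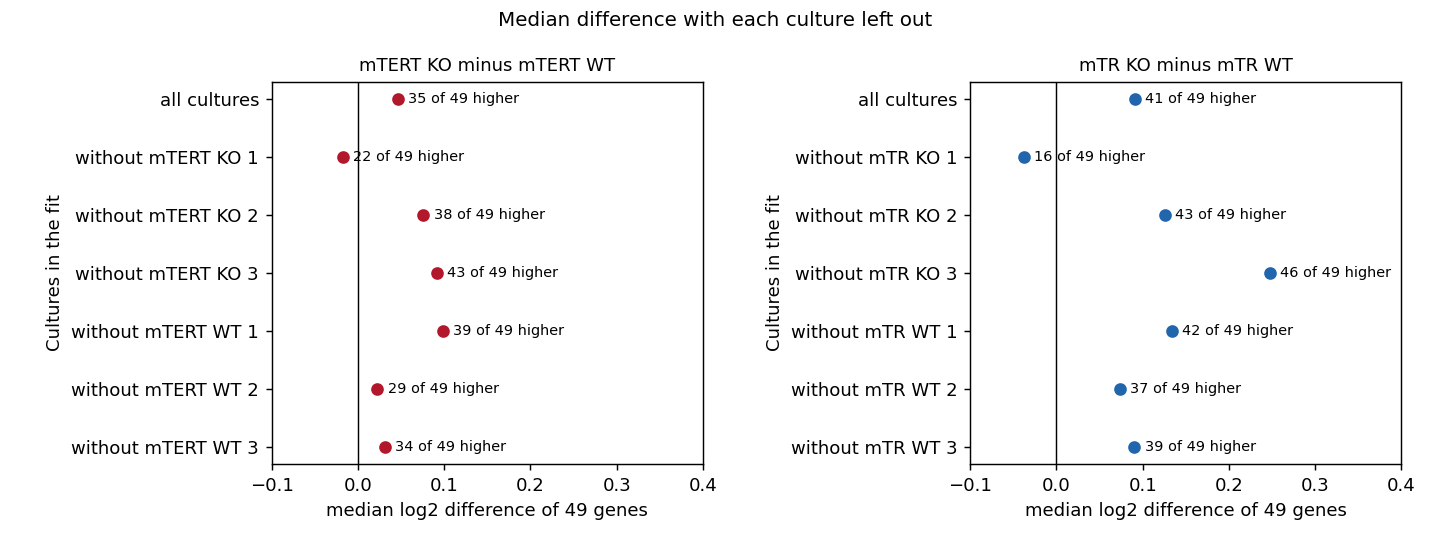
Median log2 difference of the 49 genes (horizontal) with all cultures and with each culture of the line left out in turn (vertical), for the mTERT line on the left and the mTR line on the right, with the number of genes that were higher beside each point. Only the points without mTERT KO 1 and without mTR KO 1 lie below 0, and the point without mTR KO 3 lies farthest above it.

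E2F factors bind short GC-rich elements close to the transcription start, and the promoters of the genes were searched for 3 such sequences. RefSeq windows of 250 bases before to 50 bases after the start (build GRCm38.p6) were found for 40 of the 49 genes, the others being Mcm4, Gins1, Gins2, Rfc2, Prim2, Pole, Ccne2, Dscc1 and Tipin. The first was TTCCCGC, the second was TTGGCGC, and the third was TTCGCGC, each searched on both strands. At least 1 of them lay in the windows of 25 of these 40 genes (62.5%), against 9.2% of 27025 genes with a window. The first was in 37.5% of the 40 against 5.29% of all, the second in 32.5% against 2.85%, and the third in 25.0% against 1.81%. Of 18 G2 and mitosis genes with a window, 11.1% held one of the 3. Those genes carried TTTGAA, the core of the cell cycle homology region of mitotic promoters, in 72.2%, against 17.5% of the replication and E2F genes and 20.2% of all genes. CCAAT, the letters bound by NF-Y, was in 60.0% of the 40, in 77.8% of the mitosis genes and in 41.1% of all genes. The windows of 4 genes are shown because these genes had the smallest p in either knockout comparison of those with a match among the genes given in all 12 cultures. Capitals mark matches to an E2F sequence or to its reverse complement, none of which overlap, and each line runs 5′ to 3′ along the gene. E2f2 lies on the plus strand at chr4:136172024-136172323, Pola1 on the minus strand at chrX:93632106-93632405, Wdhd1 on the minus strand at chr14:47276808-47277107 and Dnmt1 on the minus strand at chr9:20952574-20952873.
E2f2: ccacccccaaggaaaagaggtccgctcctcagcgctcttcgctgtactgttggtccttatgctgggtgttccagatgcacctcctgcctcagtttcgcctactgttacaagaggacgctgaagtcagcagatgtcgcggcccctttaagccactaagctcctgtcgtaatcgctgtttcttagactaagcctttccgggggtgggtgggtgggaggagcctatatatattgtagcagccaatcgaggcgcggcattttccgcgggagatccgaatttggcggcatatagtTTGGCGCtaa
Pola1: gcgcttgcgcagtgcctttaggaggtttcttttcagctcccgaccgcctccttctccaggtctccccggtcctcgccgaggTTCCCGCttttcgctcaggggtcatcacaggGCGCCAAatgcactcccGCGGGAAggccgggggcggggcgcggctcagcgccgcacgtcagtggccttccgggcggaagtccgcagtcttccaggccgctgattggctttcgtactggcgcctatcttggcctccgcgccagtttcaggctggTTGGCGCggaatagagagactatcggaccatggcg
Wdhd1: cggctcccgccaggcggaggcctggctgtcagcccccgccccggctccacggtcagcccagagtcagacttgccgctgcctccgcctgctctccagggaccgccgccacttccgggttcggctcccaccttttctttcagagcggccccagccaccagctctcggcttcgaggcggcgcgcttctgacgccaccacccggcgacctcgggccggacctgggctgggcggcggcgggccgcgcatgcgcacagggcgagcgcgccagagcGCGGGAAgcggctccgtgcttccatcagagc
Dnmt1: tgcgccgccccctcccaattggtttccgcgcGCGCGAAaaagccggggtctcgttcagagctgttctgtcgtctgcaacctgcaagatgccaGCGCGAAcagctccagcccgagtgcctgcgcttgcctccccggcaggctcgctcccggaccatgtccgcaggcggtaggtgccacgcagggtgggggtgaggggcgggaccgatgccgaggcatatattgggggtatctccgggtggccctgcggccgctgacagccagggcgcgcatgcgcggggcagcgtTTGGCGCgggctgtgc
The window of Pola1 thus holds matches to the first and the second sequence, and that of Wdhd1 to the first. The window shown of Dnmt1 matches the second and the third, and that of E2f2 the second. Dnmt1 had 3 windows and E2f2 had 2, and in each gene only the 1 shown held a match. A match in these letters is no measure of binding.

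Origin licensing was represented by 10 genes, of which 7 were higher in the mTERT knockout (median 0.04) and 9 in the mTR knockout (median 0.09). Cdt1, which loads the Mcm helicase, read 6.60, 6.66 and 6.44 in mTERT KO cultures 1 to 3 against 6.52, 6.50 and 6.54 in mTERT WT cultures 1 to 3. Cdt1 read 6.85, 6.58 and 5.83 in mTR KO against 6.28, 6.38 and 6.09 in mTR WT. The 3 mTR KO cultures were spread around the wild types, the first and the second above all of them and the third below all of them, and the difference of 0.17 ± 0.20 (SE) was smaller than its error. Cdc6, the other loading factor, read 6.25, 6.19 and 6.19 in mTERT KO against 6.32, 5.95 and 6.35 in mTERT WT. It read 6.33, 6.13 and 5.90 in mTR KO against 6.11, 5.92 and 5.93 in mTR WT, so the groups overlapped in both lines (0.00 ± 0.12 and 0.14 ± 0.12). Orc1, the ATPase subunit of the origin recognition complex, read 4.97, 4.79 and 4.77 in mTERT KO against 5.07, 4.85 and 4.84 in mTERT WT, and 4.96, 4.72 and 4.75 in mTR KO against 4.75, 4.64 and 4.76 in mTR WT. Orc1 was above background in culture 1 of mTERT KO, of mTERT WT and of mTR KO only, so its differences set values at background against each other. The 6 subunits of the helicase ring, Mcm2 to Mcm7, differed by 0.01 (Mcm6) to 0.12 (Mcm2) in the mTERT line and by 0.07 (Mcm6) to 0.15 (Mcm4) in the mTR line. Orc6, a further subunit of the recognition complex, was the 1 licensing gene that was lower in mTR KO cultures (−0.09 ± 0.09).

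Of the 4 genes of helicase activation, 2 were higher in the mTERT knockout and all 4 in the mTR knockout, with a median of 0.17 in the mTR line. Mcm10, which takes part in the firing of the loaded helicase, read 6.16, 6.09 and 6.03 in mTERT KO against 6.16, 5.92 and 5.79 in mTERT WT. It read 6.28, 6.14 and 5.64 in mTR KO against 5.80, 5.69 and 5.73 in mTR WT. The first 2 mTR KO cultures thus lay above every mTR WT culture and the third below all of them, and Mcm10 differed by 0.28 ± 0.14 (limma, adjusted p = 0.840). Cdc45, a subunit of the active helicase, read 6.94, 6.76 and 6.69 in mTERT KO against 6.64, 6.74 and 6.50 in mTERT WT, and the knockouts were higher in all 3 pairs of the same number although the groups overlapped. For the mTR cultures the Cdc45 values were 6.89, 6.66 and 6.51 in KO against 6.63, 6.51 and 6.52 in WT. It had the smallest p of the 49 genes for the mean of both knockout effects (0.15 ± 0.07, limma, adjusted p = 0.985). Gins1, a GINS subunit, read 5.98, 5.83 and 5.63 in mTERT KO against 5.93, 5.86 and 5.69 in mTERT WT, which did not separate. In mTR KO it read 6.17, 5.62 and 5.53 against 5.38, 5.80 and 5.49 in mTR WT, again with overlap, the first knockout culture being the highest of the 12. Gins2 differed by −0.01 ± 0.13 in the mTERT line and by 0.05 ± 0.13 in the mTR line.

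The 7 polymerase and primase genes were higher in 6 cases in the mTERT knockout (median 0.12) and in 7 in the mTR knockout (median 0.10). Pola1, the catalytic subunit of the polymerase that starts new strands, read 7.49, 7.39 and 7.03 in mTERT KO against 7.46, 7.19 and 6.88 in mTERT WT. In each pair of the same number the knockout was the higher, while the range within a group was several times that difference (0.13 ± 0.23). Pola1 read 7.76, 7.22 and 6.75 in mTR KO against 6.94, 6.62 and 6.84 in mTR WT. Its mTR difference of 0.44 ± 0.23 was the largest of the 49 genes, with an adjusted p of 0.840 in limma, and the third knockout culture fell among the wild types. Pola2, the second subunit of that polymerase, read 7.12, 6.89 and 6.80 in mTERT KO against 6.94, 6.84 and 6.69 in mTERT WT. It read 7.04, 6.89 and 6.52 in mTR KO against 6.73, 6.75 and 6.73 in mTR WT, so that 3 tightly grouped wild types stood inside a wide range of knockouts. The primase gene Prim1 differed by 0.10 ± 0.21 and 0.26 ± 0.21, and the catalytic subunit genes Pold1 and Pole by 0.16 and 0.08 in the mTERT line and by 0.14 and 0.10 in the mTR line. Pole2, an accessory subunit of polymerase epsilon, differed by 0.12 ± 0.21 and 0.02 ± 0.21, and Prim2, the large primase subunit, by −0.02 ± 0.12 and 0.07 ± 0.12.

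Among the sliding clamp and its loaders, 5 of 6 genes were higher in each knockout. Pcna, the clamp that holds polymerases on DNA, read 10.04, 10.02 and 9.88 in mTERT KO against 9.93, 9.99 and 9.97 in mTERT WT. In mTR KO it read 10.36, 10.00 and 9.64 against 9.84, 9.65 and 9.99 in mTR WT, and the group means of 10.00 ± 0.36 and 9.83 ± 0.17 (SD, n = 3 each) were closer than the spread in the knockout. Rfc4, a clamp loader subunit, read 7.98, 7.69 and 7.54 in mTERT KO against 7.63, 7.54 and 7.44 in mTERT WT. The knockout was higher in all 3 pairs, with overlap between the groups (0.20 ± 0.17). Rfc4 read 7.88, 7.33 and 7.22 in mTR KO and 7.65, 7.41 and 7.34 in mTR WT, and the means were nearly equal (0.01 ± 0.17). Dscc1, part of the alternative loader that serves sister chromatid cohesion, read 5.49, 5.58 and 5.06 in mTERT KO against 5.46, 5.18 and 5.29 in mTERT WT. It read 5.76, 5.15 and 4.96 in mTR KO, where the third culture was at background, against 5.25, 5.18 and 5.03 in mTR WT, with overlap in both lines. The other loader subunits differed by −0.06 (Rfc3) to 0.02 (Rfc2) in the mTERT line and by −0.03 (Rfc2) to 0.12 (Rfc3) in the mTR line, with Rfc5 at 0.00 and 0.11.

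All 4 genes of single-strand binding and lagging-strand synthesis had small positive differences in the mTERT line, and 2 of 4 were higher in the mTR line. Lig1, the ligase that seals Okazaki fragments, read 7.36, 7.06 and 7.26 in mTERT KO against 7.15, 7.19 and 7.26 in mTERT WT. It read 7.57, 6.96 and 6.62 in mTR KO against 6.97, 6.89 and 7.04 in mTR WT. Both comparisons overlapped, and the mTR knockout mean of 7.05 ± 0.48 had a spread far above that of its wild type (6.97 ± 0.07, SD, n = 3 each). Rpa2, a subunit of the single-strand binding protein, read 6.96, 6.83 and 6.74 in mTERT KO against 6.86, 6.61 and 6.70 in mTERT WT. It read 7.24, 6.57 and 6.54 in mTR KO against 7.01, 6.66 and 6.98 in mTR WT and had the lowest mTR difference of the 49 genes (−0.10 ± 0.17). With the mean of all probe sets of a gene the lowest mTR difference was −0.15, so Rpa2 was then not the lowest. Fen1, the flap nuclease, differed by 0.04 ± 0.14 in the mTERT line and by −0.01 ± 0.14 in the mTR line, and Rpa1, the large subunit of the binding protein, by 0.06 ± 0.10 and 0.04 ± 0.10.

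Of the fork components, Tipin, the partner of Timeless in fork protection, read 9.13, 8.75 and 8.56 in mTERT KO against 8.95, 8.89 and 8.88 in mTERT WT. The 3 wild types lay within the range of the 3 knockouts (−0.09 ± 0.13). Tipin read 8.91, 8.84 and 8.60 in mTR KO and 8.76, 8.65 and 8.79 in mTR WT, with the same overlap. Wdhd1, the adaptor between helicase and polymerase alpha, read 7.22, 6.95 and 6.80 in mTERT KO against 7.11, 6.97 and 6.63 in mTERT WT. It read 7.26, 6.90 and 6.61 in mTR KO against 6.95, 6.59 and 6.46 in mTR WT, with the difference of 0.26 ± 0.19 inside the overlap of the groups.

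The genes of nucleotide supply were divided, with 4 of 5 higher in the mTERT knockout and 3 of 5 in the mTR knockout. Dut, the dUTPase that keeps uracil out of DNA, read 6.74, 6.70 and 6.67 in mTERT KO against 6.50, 6.55 and 6.50 in mTERT WT. All 3 knockouts lay above all 3 wild types (0.19 ± 0.07, limma, adjusted p = 1). Dut read 6.65, 6.65 and 6.45 in mTR KO against 6.71, 6.73 and 6.60 in mTR WT, so its difference had the other sign (−0.10 ± 0.07) and the groups overlapped. The difference between both effects was 0.28 ± 0.10 for Dut (limma, adjusted p = 1). Tk1, the thymidine kinase of S phase, read 7.17, 6.98 and 6.96 in mTERT KO against 7.17, 7.13 and 6.91 in mTERT WT. It read 7.55, 6.89 and 6.50 in mTR KO against 6.90, 6.79 and 6.88 in mTR WT, where the first knockout was the highest and the third the lowest of all 12 cultures. Tyms, the thymidylate synthase, differed by 0.07 ± 0.15 and 0.19 ± 0.15, and Rrm1 and Rrm2, the ribonucleotide reductase subunits, by at most 0.06 in size in both lines.

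The 8 regulators of the G1/S step were split, with 3 higher in the mTERT knockout and 6 in the mTR knockout. E2f2, one of the activating E2F factors, read 4.82, 4.79 and 4.96 in mTERT KO against 5.10, 4.97 and 5.11 in mTERT WT. It read 5.16, 5.16 and 4.96 in mTR KO against 4.96, 4.76 and 4.76 in mTR WT. Knockouts were thus below all wild types in the mTERT line (−0.20 ± 0.09, limma, adjusted p = 1) and above all of them in the mTR line (0.27 ± 0.09, limma, adjusted p = 0.839). E2f2 was above background in 2 mTERT WT and 2 mTR KO cultures and in no culture of mTERT KO or mTR WT. With those groups placed at background, the E2f2 mean was 1.04-fold higher in mTERT WT than in mTERT KO. The mean was 1.08-fold higher in mTR KO than in mTR WT. Cultures mTERT WT 2 and mTR KO 3 were themselves at background, so these folds are not lower bounds. Rbl1, the retinoblastoma relative p107 that is itself an E2F target, read 7.72, 7.62 and 7.47 in mTERT KO against 7.66, 7.44 and 7.55 in mTERT WT. It read 8.09, 7.36 and 7.21 in mTR KO against 7.44, 7.18 and 7.42 in mTR WT, and 1 knockout culture exceeded all others while the rest overlapped. E2f8, an atypical repressor of the family, was chosen after its values were seen and read 6.59, 6.33 and 5.89 in mTR KO against 6.02, 5.87 and 5.84 in mTR WT (0.36 ± 0.15, limma, adjusted p = 0.839). In the mTERT line E2f8 differed by −0.03 ± 0.15. The other atypical member E2f7 differed by −0.12 ± 0.11 in the mTERT line and −0.06 ± 0.11 in the mTR line, and the activators E2f1 and E2f3 by 0.03 ± 0.07 and −0.05 ± 0.11 in the mTERT line and by 0.08 ± 0.07 and −0.10 ± 0.11 in the mTR line. The cyclin genes Ccne1 and Ccne2, whose products drive entry into S phase, differed by −0.12 ± 0.12 and 0.23 ± 0.17 in the mTERT line. In the mTR line they differed by 0.09 ± 0.12 and 0.17 ± 0.17. These errors come from a fit that leaves the mTERT pairs out of account. Within the 3 mTERT pairs E2f7 differed by −0.112, −0.122 and −0.135, and Ccne1 by −0.142, −0.09 and −0.121. The sign changed between pairs for E2f1, E2f3, E2f8 and Rbl1.

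The last 3 genes, which serve maintenance methylation and histone mRNA, were higher in both knockouts. Uhrf1, which brings the methyltransferase to replicated DNA, read 7.74, 7.45 and 7.36 in mTERT KO against 7.62, 7.38 and 7.39 in mTERT WT. It read 7.87, 7.52 and 7.08 in mTR KO against 7.42, 7.25 and 7.18 in mTR WT, and both comparisons overlapped (0.05 ± 0.17 and 0.21 ± 0.17). Dnmt1, that methyltransferase, read 8.48, 8.33 and 8.31 in mTERT KO against 8.38, 8.26 and 8.18 in mTERT WT. The knockout was higher in each of the 3 pairs by 0.07 to 0.13. Dnmt1 read 8.57, 8.25 and 7.99 in mTR KO and 8.22, 7.95 and 8.15 in mTR WT, again with the third knockout near the bottom. Slbp, which binds the stem-loop of histone mRNAs, differed by 0.03 ± 0.12 and 0.08 ± 0.12.

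**Figure D3:**
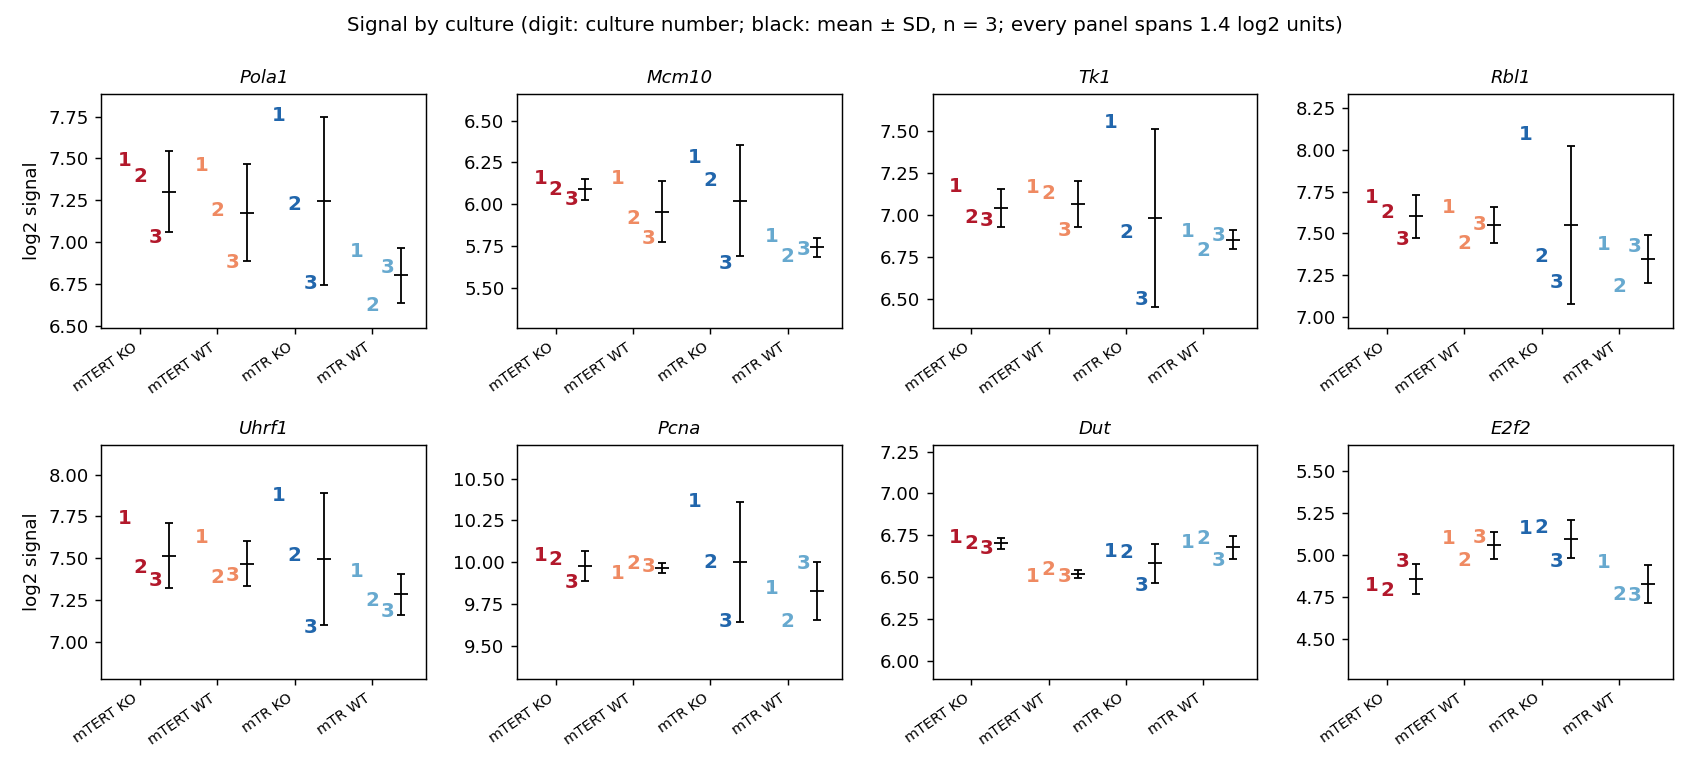
Log2 signal (vertical) of 8 genes in every culture, by group (horizontal), with the culture number as the symbol and the group mean ± SD (n = 3) in black; every panel spans the same number of log2 units. In Pola1, Tk1, Rbl1, Uhrf1 and Pcna mTR KO 1 is the highest culture, whereas in Dut and E2f2 the mTR KO cultures differ less than in those.

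Over the 49 genes, the mTR KO cultures differed from each other more than the cultures of any other group. The mean of the 49 genes was 7.41, 7.23 and 7.20 in mTERT KO cultures, 7.33, 7.19 and 7.20 in mTERT WT, 7.52, 7.19 and 6.97 in mTR KO, and 7.21, 7.06 and 7.09 in mTR WT. Its range was 0.553 in mTR KO and 0.21 in mTERT KO, while the means of the 4 groups lay between 7.12 and 7.28. Among the 4 groups mTR KO had the widest range for 40 of the 49 genes, against 29.2% of all probe sets. The median range of a gene there was 0.65, against 0.25 in mTERT KO, 0.24 in mTERT WT and 0.23 in mTR WT. Over all probe sets it was 0.20 in mTR KO, mTERT KO and mTERT WT and 0.18 in mTR WT. By role, mTR KO did not have the widest median range for the G1/S regulators (0.237, against 0.267 in mTERT WT). For the fork components it was 0.485, against 0.498 in mTERT KO. Of the 12 cultures mTR KO 1 was the highest for 30 genes, against 9.83% of all probe sets, and mTR KO 3 the lowest for 27, against 5.68%. For 44 genes mTR KO 1 was above all 3 mTR WT cultures, and for 31 mTR KO 3 was below all of them, where 25.6% and 22.1% of all probe sets were. Both held for 28 genes (5.85% of all probe sets), among them Mcm2 to Mcm7, Cdt1, Cdc6, Mcm10, Pold1, Pole, Pcna, Rfc4 and Lig1. Between these 2 cultures of one genotype 48 of 49 genes were higher in mTR KO 1, with a median of 0.65, where the median of all probe sets was −0.04. Cdt1 differed by 1.03 between them and Pola1 by 1.01, where the largest knockout effect on any of the 49 genes was 0.44. In the mTERT line mTERT KO 1 was above all 3 mTERT WT cultures for 36 genes (26.3% of all probe sets), while mTERT KO 2 was for 8 (19.7%) and mTERT KO 3 for 5 (23.2%). mTERT KO 2 was below all of them for 11 genes (27.4%) and mTERT KO 3 for 13 (19.7%).

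**Figure D4:**
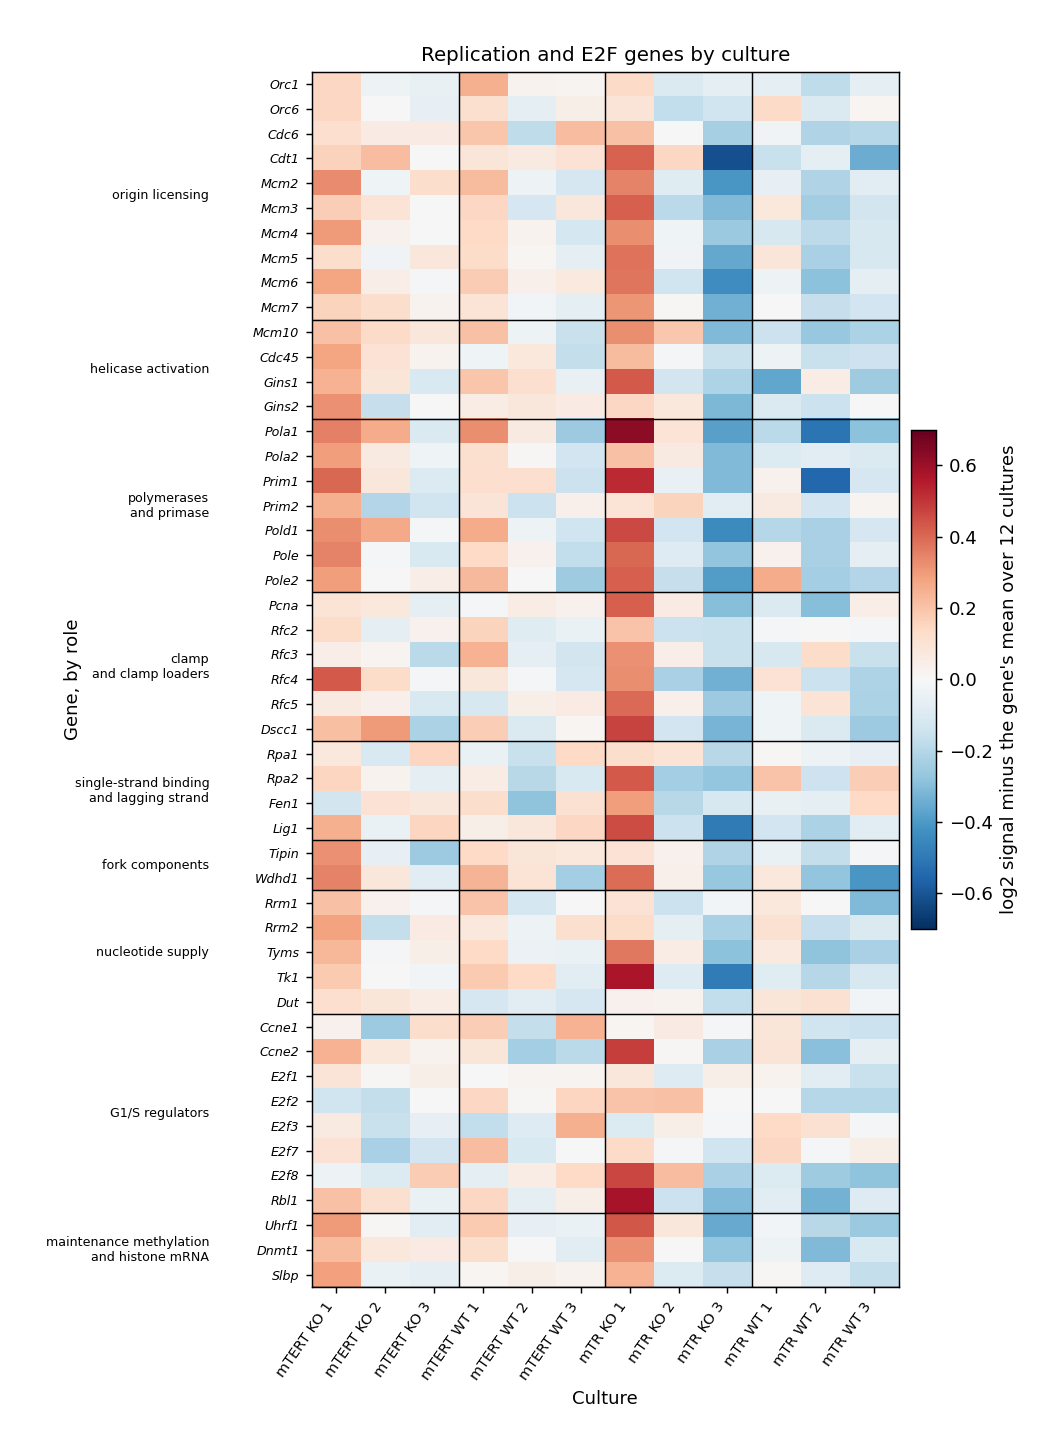
Log2 signal of each of the 49 genes (vertical, grouped by role) in each culture (horizontal) minus the mean of that gene over the 12 cultures, in red where above and blue where below. The column of mTR KO 1 is red for nearly all genes and that of mTR KO 3 blue, and the column of mTERT KO 1 is the next reddest.

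The mTERT cultures of the same number deviated together and were taken as pairs, and the pairs differed in how many genes were higher. In pair 1 39 of 49 genes were higher in the knockout (median 0.10), in pair 2 29 (median 0.02) and in pair 3 25 (median 0.01), where all probe sets stood at 50.3%, 49.7% and 50.3%. The knockout was higher in all 3 pairs for 15 genes, against 12.6% of all probe sets, and these were Mcm2, Mcm4, Mcm7, Cdc45, Pola1, Pola2, Pold1, Pole2, Rfc4, Rpa1, Rpa2, Tyms, Dut, Ccne2 and Dnmt1. It was lower in all 3 for Orc1, Ccne1, E2f2 and E2f7, which is 4 of 49 genes against 3603 of 28853 probe sets.

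Neighbouring gene groups showed which genes kept company with the 49. Of 37 further replication genes, chosen for their function, 27 were higher in the mTERT knockout and 29 in the mTR knockout, with medians of 0.04 and 0.10 and 0 past the test. Those with the smallest p in the mTERT line were Pold4 and Pold2, subunits of polymerase delta, with 0.16 ± 0.09 and 0.21 ± 0.17, and the large clamp loader subunit Rfc1 with 0.17 ± 0.12. In the mTR line they were topoisomerase gene Top1 with 0.15 ± 0.07, Rfc1 with 0.25 ± 0.12 and the checkpoint adaptor gene Clspn with 0.26 ± 0.13. Of 23 genes of G2 and mitosis 19 and 22 were higher, with medians of 0.07 and 0.13. Their mean was 8.06, 7.50 and 7.17 in mTR KO cultures against 7.56, 7.24 and 7.40 in mTR WT cultures, so the order of the mTR KO cultures was that of the replication genes, over a wider range. In the mTERT line the mean was 7.90, 7.57 and 7.50 in KO and 7.80, 7.53 and 7.39 in WT cultures. The kinetochore motor gene Cenpe differed by 0.52 ± 0.30, the checkpoint kinase gene Bub1 by 0.40 ± 0.26 and the proliferation marker Mki67 by 0.46 ± 0.31 in the mTR line, and none passed. In the mTERT line Mybl2, a transcription factor of the cell cycle, differed by 0.17 ± 0.15, Ndc80 of the kinetochore by 0.22 ± 0.20 and Cenpa, the centromeric histone, by 0.14 ± 0.15.

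The regulators upstream did not lean one way in both lines. Of 22 genes of retinoblastoma proteins, cyclins, their kinases and inhibitors, and further E2F factors, 13 were higher in the mTERT knockout and 8 in the mTR knockout, with medians of 0.02 and −0.03. The median range of a single regulator was 0.36 in mTR KO and 0.30 in mTERT KO cultures, where it was 0.65 and 0.25 for the 49 genes. Single regulators could vary more than any of the 49: the inhibitor gene Cdkn2b had an SD of 0.397 over the 12 cultures, where the largest of the 49 was 0.345, for Pola1. The repressor gene E2f6 differed by −0.23 ± 0.09, the cyclin gene Ccnd3 by −0.17 ± 0.08 and the inhibitor gene Cdkn2d by −0.20 ± 0.09 in the mTR line (limma, adjusted p = 0.839 for each). In the mTERT line the kinase genes Cdk2 and Cdk4 differed by 0.14 ± 0.10 and 0.07 ± 0.06 and the inhibitor gene Cdkn1c by 0.30 ± 0.23. Markers of macrophages varied more between cultures. Their median range was 1.94 in mTR KO, 1.76 in mTERT KO, 1.69 in mTERT WT and 2.01 in mTR WT, the widest. The mean of 16 macrophage markers was 7.42, 9.16 and 8.95 in mTERT KO, 7.70, 8.97 and 9.27 in mTERT WT, 9.47, 8.78 and 7.50 in mTR KO, and 6.68, 8.22 and 8.65 in mTR WT cultures. In mTR KO it ran in the same order as the replication genes, whereas mTERT KO 1, the highest mTERT culture for the replication genes, was the lowest of its line for macrophage markers. Cultures mTERT WT 1 and mTR WT 1 were also the highest of their groups for the replication genes and the lowest for macrophage markers. The part of this in the results was not tested.

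**Figure D5:**
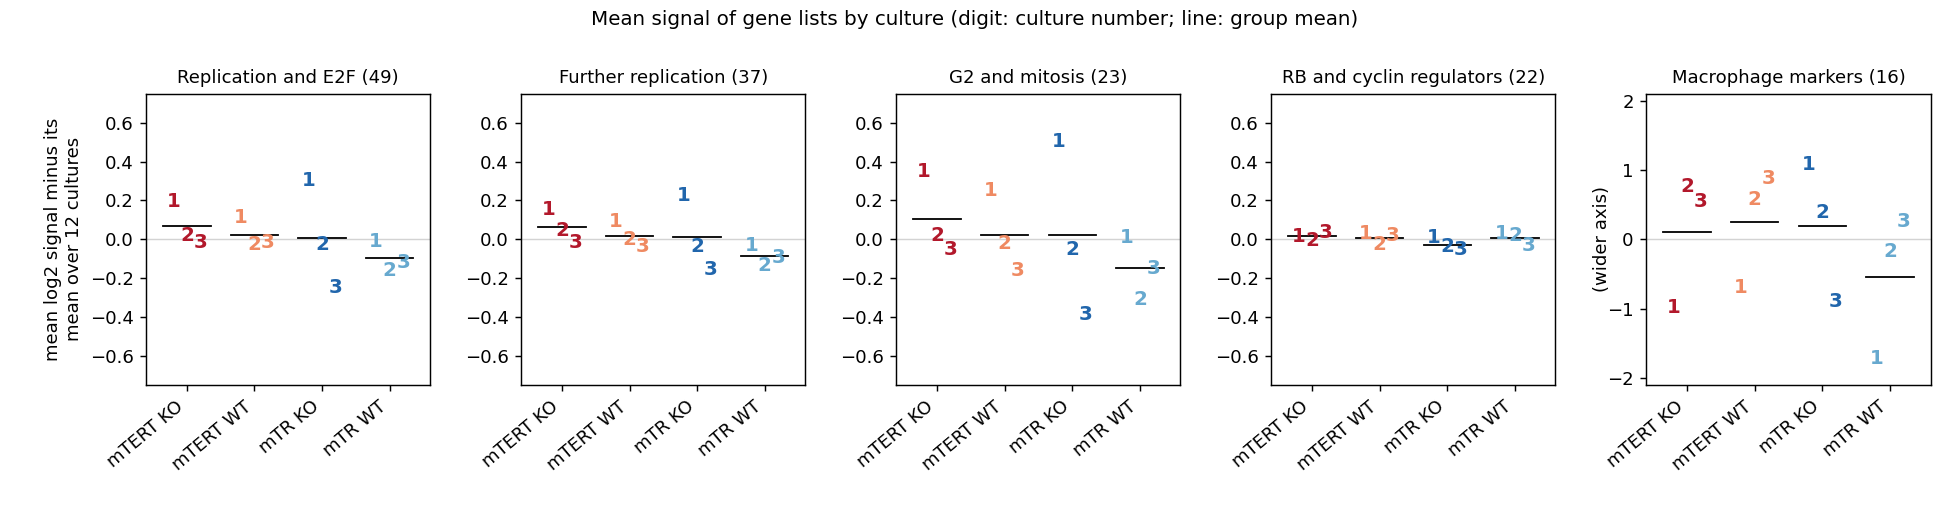
Mean log2 signal of 5 gene lists in every culture minus its mean over the 12 cultures (vertical), by group (horizontal), with the culture number as the symbol and a line at the group mean; the panel of macrophage markers has a wider axis. The replication, further replication and mitosis genes spread most in mTR KO, with culture 1 at the top and culture 3 at the bottom, and the mean of the retinoblastoma and cyclin regulators, whose differences had both signs, lies close to 0 in every culture.

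Most of the 49 genes followed one profile over the cultures. As a description over 12 cultures, which share line and genotype and are not independent, the correlation of a gene with the mean of the other 48 had a median of 0.83 and was above 0.8 for 27 genes. Without the 2 cultures farthest from the median the median was 0.74, and 20 genes were above 0.8. Uhrf1 (0.97), Tyms (0.96), Mcm7 (0.96) and Mcm4 (0.95) were nearest to the common profile. The correlation was under 0.5 for Fen1 (0.38), E2f2 (0.35), Dut (0.29), Ccne1 (0.23) and E2f3 (−0.30). The 25 genes with an E2F sequence in the window had a median correlation of 0.88 and a median difference between mTR KO 1 and mTR KO 3 of 0.69, against 0.82 and 0.41 in the 15 genes with a window and without a match, and this difference was not tested.

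The 2 wild-type lines were compared as well, both being cells with intact telomerase. In mTERT WT cultures 43 of the 49 genes were higher than in mTR WT cultures, with a median of 0.14, where 52.2% of all probe sets were higher. The lines did not overlap for 11 genes upward, against 5.91% of all probe sets, namely Orc1, Cdt1, Mcm6, Gins2, Lig1, Tipin, Tk1, E2f2, E2f8, Rbl1 and Slbp. Dut did not overlap downward, 1 gene against 7.14% of all probe sets. None passed the test, where 0.0173% of all probe sets did (limma, smallest adjusted p of the 49 genes 0.646, for E2f2). At the unadjusted threshold of 0.05, Orc1 (0.20 ± 0.09) and E2f2 (0.23 ± 0.09) were higher, where 2.85% of all probe sets were, and Dut (−0.16 ± 0.07) was lower, where 3.93% were. Orc1 and E2f2 were at background in every mTR WT culture. With mTR WT placed at background, the E2f2 mean of mTERT WT was 1.05-fold higher, with mTERT WT 2 itself at background. Orc1 was above background in 1 mTERT WT culture, and its mTERT WT mean lay below the background level of mTR WT. In a fit of only the 6 arrays compared 8 genes were higher at that threshold, and 4 with the same number in both lines as a replicate block, where 885 and 1032 of 28853 probe sets were. This comparison shares its cultures with both knockout comparisons. Without any 1 culture of either wild type the count of higher genes stayed between 39 and 46.

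The effects of the knockouts were set against each other in the same fit. For 16 of the 49 genes the mTERT effect was above the mTR effect, with a median difference of −0.05, where 50.9% of all probe sets were. E2f2 was lower by this measure (−0.47 ± 0.12, limma, adjusted p = 1) and Dut higher, and at an unadjusted p below 0.05 1.44% of all probe sets were lower and 1.9% higher. No gene of the 49 passed, where 0.0% of all probe sets did. Averaged over both lines, 43 of 49 genes were higher in the knockouts with a median of 0.06, where 50.4% of all probe sets were. For this mean effect none passed and 0 had an unadjusted p below 0.05, against 1.63% of all probe sets upward and 2.46% downward. With the same number in both lines as a replicate block 5 genes were higher at that level, with the number within a line as a random block 2 were, and 13 without mTR KO 3, where 718, 712 and 611 of 28853 probe sets were. Without mTR KO 1 the count of higher genes was 25 for the mean effect and 36 for the difference of effects, and without mTR KO 3 these counts were 45 and 5.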

How the data were processed

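RNA of 12 cultures was hybridised to Affymetrix Mouse Gene 1.0 ST arrays, 1 array a culture. The authors deposited log2 signals per probe set, already on a common scale. GCOS 1.4, PLIER and Affymetrix Expression Console are named, per the submitters' processing notes; how arrays were normalized is not stated in the sources at hand. Array quantiles differed by at most 0.084 and correlations between arrays ran from 0.984 to 0.997, so the deposited values were used unchanged. The number of arrays limits the precision.

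The platform annotation gave 21789 of 28853 probe sets a single symbol, 1621 more than 1 and 5443 no symbol. The 49 symbols were unchanged in RefSeq GRCm38.p6. Of 145 further genes listed for context or as markers, 136 were used and the others were not analysed here. The genes and lists were chosen with earlier results of these data known. Values in every culture were given, per role, for the gene with the smallest p in each knockout comparison and the one with the largest SD over 12 cultures; of each further list, the 3 genes with the smallest p.

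limma 3.58.1 (R 4.3.3) fitted 4 group means to all 12 arrays and 28853 probe sets (8 residual and 3.14 prior degrees of freedom), with Benjamini-Hochberg adjustment and a 5% threshold, after a check on simulated data. Differences are log2 values ± the standard error of the fit, 3 arrays a group. This error does not use the pairs of the mTERT line. Pairing was checked on 14426 brighter probe sets by correlating deviations from group means. Same-numbered knockout and wild-type cultures correlated at 0.674, 0.733 and 0.790 in the mTERT line, which was taken as paired from the data, and at −0.156, 0.289 and −0.377 in the mTR line, which was not. For same-numbered wild types across lines the values were 0.527, 0.135 and 0.132, with up to 0.179 across different numbers. The 24 alternatives covered blocks, normalization, filters, probe set choice, variance model, array weights, the arrays fitted and the omission of each array. Figures were drawn with matplotlib 3.10.9.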

Additional observations from a re-analysis of the deposited data

Results flagged for a closer look

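E2f2 differed between the knockouts: every mTERT KO culture (4.82, 4.79 and 4.96) lay below every mTERT WT culture (5.10, 4.97 and 5.11), and every mTR KO culture (5.16, 5.16 and 4.96) lay above every mTR WT culture (4.96, 4.76 and 4.76), although the nearest cultures were close, at 4.960 in mTERT KO 3 against 4.966 in mTERT WT 2 and at 4.962 in mTR KO 3 against 4.958 in mTR WT 1. The mTERT effect minus the mTR effect was −0.47 ± 0.12 (limma, adjusted p = 1), so the difference failed the correction over 28853 probe sets, and the signal was above background in 4 of the 12 cultures.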

How the results depend on the processing

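No gene of the 49 passed the 5% threshold in any comparison under any of the 24 alternatives (limma, smallest adjusted p 0.264). Over the omissions of 1 array the count of higher genes ran from 22 to 43 in the mTERT line, from 16 to 46 in the mTR line, from 5 to 36 for the difference of effects, from 25 to 45 for the mean effect and from 39 to 46 between wild types. Their medians ran from −0.02 to 0.10, from −0.04 to 0.25, from −0.20 to 0.09, from 0.00 to 0.16 and from 0.09 to 0.18. Under the other alternatives the counts ran from 33 to 37, from 36 to 42, from 15 to 22, from 38 to 43 and from 40 to 43. Pcna, Tk1, E2f3 and Slbp had 2 probe sets each. With the mean of all probe sets of a gene, 34 genes were higher in the mTERT line, against 35 in the fit used. Of 2016 values of single genes under alternatives, 1181 differed from those reported by over 0.0005 and 42 moved by the spread between replicates (0.16) or more, all 42 on leaving out 1 array, and 0 passed the threshold.

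In this balanced design a replicate block changes the errors and not the differences, so the median of the mTERT line stays at 0.05 by construction, and the block changed no call on the 49 genes. Among all probe sets in the mTERT comparison, 1 passed in the fit used, that of Tert. With quantiles equalised between arrays and in a fit of the 6 arrays concerned 0 passed, so Tert did not pass there either. In a paired fit of the 6 mTERT arrays alone, which was chosen after seeing the data, 0 passed. On leaving out 1 array 0 to 2 passed. Between wild types 5 passed, 9 with the same number in both lines as a replicate block, 17 with the mTERT pairs as a block, 0 after quantile normalization, 9 with array weights, 1 with only the arrays compared and 0 to 11 on leaving out 1 array. On leaving out 1 array 0 to 3 passed in the mTR comparison and 0 to 1 for the mean effect. The cause was not tested. In the paired fit 3 of the 49 genes were higher at an unadjusted p below 0.05, against 1 in the fit used. Of all 28853 probe sets 772 were, against 277. With the block over both lines 5 genes were higher in the mTR comparison, against 2, where 909 of all probe sets were, against 644. For the mean effect 5 genes were, against 0, where 718 of all probe sets were, against 469. In the mTR line not every culture correlated best with its own number. Signals of Orc1 and E2f2 near background limit what can be read from them.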
